A study of Mus musculus with 9 samples.

Results

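The Toll-like receptors and the co-receptors for lipopolysaccharide (LPS) were examined in myeloid-derived suppressor cells (MDSCs) from the spleens of tumour-bearing mice. They were taken as the rows of the expression files with the gene symbols Tlr1, Tlr2, Tlr4, Tlr6, Tlr7, Tlr8, Tlr9, Tlr13, Cd14 and Ly96, which are 10 of the 23284 genes in the files. All 10 were found in every file and all had at least 1 FPKM in all 9 samples, so that none was lost to the filter on low values. Levels are given as FPKM, a unit in which sequenced fragments are divided by transcript length and by the amount mapped in each sample, so that levels of different genes can be set beside each other.

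The samples were RNA-sequencing libraries of 3 groups of 3: PMN-MDSCs, the neutrophil-like subset, from wild-type (WT) mice of strain C57BL/6J, Mo-MDSCs, the monocyte-like subset, from WT mice of the same strain, and Mo-MDSCs from mice of strain C57BL/6 labelled as double knockouts of p16 and p21 (p16/p21-DKO). All mice, the WT ones included, carried spindle cell tumours (SCTs) grown from an inoculated cell line that had been derived from a p16-knockout mouse. The labels give an age of 3 weeks. The study's methods give older mice at inoculation and isolation of the cells 3 weeks later. The 3 weeks thus match the time since inoculation rather than the age of the mice. PMN-MDSCs were isolated as Ly6G+ and Mo-MDSCs as Ly6G- Gr-1+ cells with a magnetic isolation kit. PMN-MDSCs of p16/p21-DKO mice were not analysed here. The comparison of WT Mo-MDSCs with WT PMN-MDSCs shows how the receptors are divided between the subsets, and the comparison of Mo-MDSCs labelled DKO with WT Mo-MDSCs shows whether their levels differ by genotype. Nothing in the labels says whether the 3 samples of a group came from separate mice, so that the p-values measure the spread between these samples, which may be technical in part.

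Toll-like receptors recognise conserved molecules of microbes and signal through cytoplasmic TIR domains. Tlr2 pairs with Tlr1 or Tlr6 at the cell surface to detect bacterial lipopeptides, and Tlr4 detects LPS together with Ly96 (MD-2), which binds the lipid, and Cd14, which delivers it. Tlr7, Tlr8, Tlr9 and Tlr13 act in endosomes on nucleic acids and reach them with the chaperone Unc93b1. All members signal through the adaptor Myd88 or assist a receptor that does, and in myeloid cells they drive the production of inflammatory cytokines.

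The genes lie at separate places of the mouse genome apart from a pair of neighbouring clusters (coordinates of GRCm38, GENCODE M21). Tlr1 (chr5:64924679-64933563) and Tlr6 (chr5:64952031-64960097) lie 18468 bases apart on the minus strand of chromosome 5. Tlr8 (chrX:167242696-167264329) and Tlr7 (chrX:167304929-167330558) lie 40600 bases apart on the minus strand of the X chromosome, and Tlr13 (chrX:106143204-106160493) lies on the same chromosome, on the plus strand. Tlr2 was at chr3:83836272-83841767, Tlr9 at chr9:106222598-106226883 and Ly96 at chr1:16688051-16709611. Tlr4 (chr4:66827584-66930284) is on the chromosome of Cdkn2a, the gene of p16, with 22.3 Mb between them. Because 3 of the genes are X-linked, the sex of the samples was checked: Xist was at most 0.0983 FPKM and the Y-linked gene Ddx3y between 19.4 and 30.4 FPKM in all 9 samples.

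Tlr1 and Tlr6 are so alike that reads cannot always be told apart, and the stretches they share are shown because the results turn on the opposite behaviour of these genes. Of the 3307 different words of 75 bases, the read length, in the transcripts of Tlr1, 340 also occurred in Tlr6, and with 11 further words shared with other genes 10.6% were not unique. In Tlr6 9.25% were shared, and none were in the other 8 members. The shared words came from 4 runs of 75 bases or more, with 636 bases in all and inside the coding sequences of both genes. The longest had 229 bases, codons 490 to 566 of the 795 of Tlr1 (chr5:64925537-64925765) and codons 503 to 579 of the 806 of Tlr6 (chr5:64953828-64954056), and the next had 208 bases, codons 579 to 648 of Tlr1 (chr5:64925291-64925498) and codons 592 to 661 of Tlr6 (chr5:64953582-64953789), all on the minus strand.
Tlr1 and Tlr6, longest shared run: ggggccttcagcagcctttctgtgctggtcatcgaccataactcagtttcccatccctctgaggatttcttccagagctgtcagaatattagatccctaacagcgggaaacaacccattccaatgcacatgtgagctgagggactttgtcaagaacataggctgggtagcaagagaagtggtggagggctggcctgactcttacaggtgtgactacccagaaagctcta
Tlr1 and Tlr6, next shared run: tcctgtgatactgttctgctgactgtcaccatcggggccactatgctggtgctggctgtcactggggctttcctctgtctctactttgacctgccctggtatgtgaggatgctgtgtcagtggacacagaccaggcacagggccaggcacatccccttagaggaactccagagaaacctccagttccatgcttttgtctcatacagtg
How such reads were divided between the genes is not given in the sources used here.

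The total of the FPKM values ranged from 494252 to 916642 per sample, and the depth in reads is unknown. The genes named as deleted were checked first. Cdkn1a, the gene of p21, was at 5.55, 8.52 and 6.00 FPKM in the samples labelled DKO and at 8.18, 6.46 and 8.04 in WT Mo-MDSCs, so that these overlapped. Cdkn2a was at 0.258, 0.586 and 0 FPKM in the samples labelled DKO and at 0.718, 0.772 and 0.432 in WT Mo-MDSCs, which is too low for a comparison. The files hold 1 value per gene, which would not show the loss of only part of a gene, and the samples are therefore called libraries labelled DKO. Markers of the sorted subsets differed as their names say: the neutrophil gene Cxcr2 was between 590.4 and 875.5 FPKM in PMN-MDSCs and at most 18.6 in Mo-MDSCs, and the monocyte gene Ccr2 was at most 2.51 in PMN-MDSCs and between 159.9 and 361.5 in Mo-MDSCs.

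RNA of other splenic cells was present in all 9 libraries. Summed over a list of 8 red-pulp macrophage markers (among them C1qa, Vcam1 and Spic), PMN-MDSCs reached 5880 to 7006 FPKM, WT Mo-MDSCs 3744 to 4814 and the libraries labelled DKO 4044 to 6145, with the highest DKO value in replicate 1. All 8 of these markers were above 1 FPKM in all libraries. Summed over 9 B-cell markers, the level was 1810 to 2085, 1319 to 1486 and 1414 to 1823 FPKM in the same order, with Cd79a at 353.2 FPKM or more in all libraries. The 8 plasmacytoid dendritic cell markers summed to 525.2 to 588.4, 389.3 to 432.9 and 421 to 456.5 FPKM, and 5 of them (Ly6d, Bst2, Cox6a2, Tcf4 and Pacsin1) were above 1 FPKM in all libraries, whereas the defining marker Siglech was at most 0.792 FPKM. Lists of T and NK cell markers and of conventional dendritic cell markers summed to at most 25.01 and 15.5 FPKM, and Ncr1, which marks NK cells, was at most 0.449. Erythroid markers summed to 175.4 to 506.0 FPKM, with the highest value in replicate 2 of each group. Macrophages and B cells are themselves known to express many of the receptors described here, and the part of these cells in the results was not tested.

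**Figure D1:**
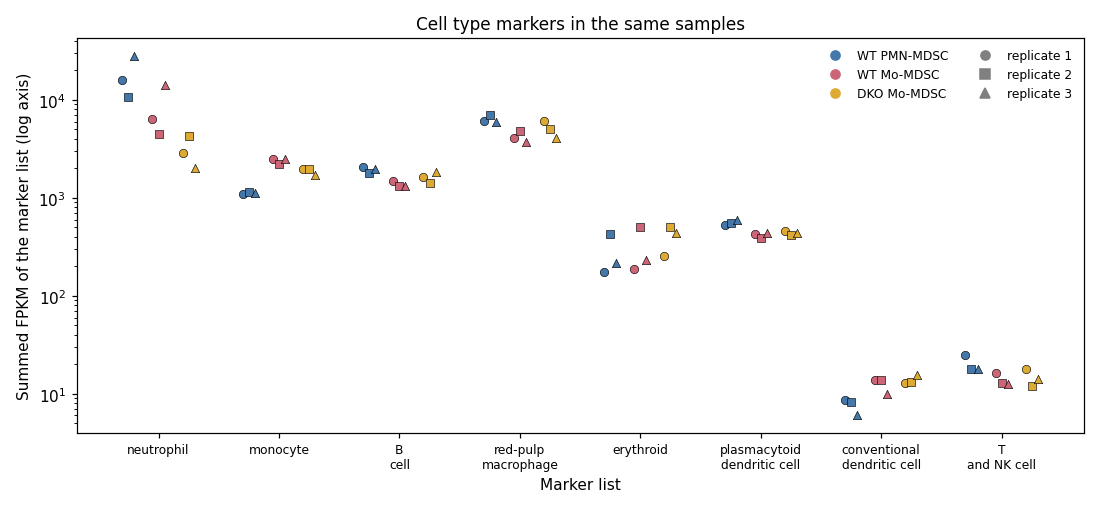
Summed FPKM of 8 lists of cell type markers (log axis) in the 9 samples, coloured by group, with a symbol for each replicate number. The monocyte list sat between 1723 and 2470 in all Mo-MDSC samples and between 1084 and 1141 in PMN-MDSCs, and B-cell markers were between 1319 and 2085 in all samples.

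All 10 genes were well expressed in each group, and their order differed between the subsets. In PMN-MDSCs the bacterial-RNA receptor Tlr13 was highest at 121.7 ± 17.2 FPKM (SD, n = 3), followed by Cd14 at 98.5 ± 5.70, and these did not overlap with each other or with Tlr2 at 49.6 ± 6.78. The remaining genes followed in the order Tlr4, Tlr7, Tlr1, Ly96, Tlr9, Tlr8 and Tlr6, from 41.5 ± 9.78 to 26.7 ± 3.22 FPKM, and each overlapped with its neighbour. In WT Mo-MDSCs the single-stranded RNA receptor Tlr7 was highest at 73.7 ± 12.0 FPKM, overlapping with Tlr13 at 63.9 ± 3.59. Tlr1 (49.8 ± 4.50), Tlr9 (45.0 ± 2.47), Cd14 (44.3 ± 5.41) and Tlr8 (40.1 ± 3.04) formed a run in which neighbours overlapped. Tlr2 (31.0 ± 2.69), Ly96 (29.98 ± 3.59) and Tlr4 (24.5 ± 2.497) formed another. Gaps lay between Tlr13 and Tlr1 and between Tlr8 and Tlr2. Tlr6 was lowest at 12.6 ± 1.40 FPKM and did not overlap with Tlr4. In the libraries labelled DKO the order was Tlr7, Cd14, Tlr13, Tlr1, Tlr8, Tlr9, Tlr4, Ly96, Tlr2 and Tlr6, from 67.0 ± 7.71 to 10.2 ± 0.542 FPKM, with gaps only between Tlr13 and Tlr1, Tlr1 and Tlr8, and Tlr2 and Tlr6.

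**Figure D2:**
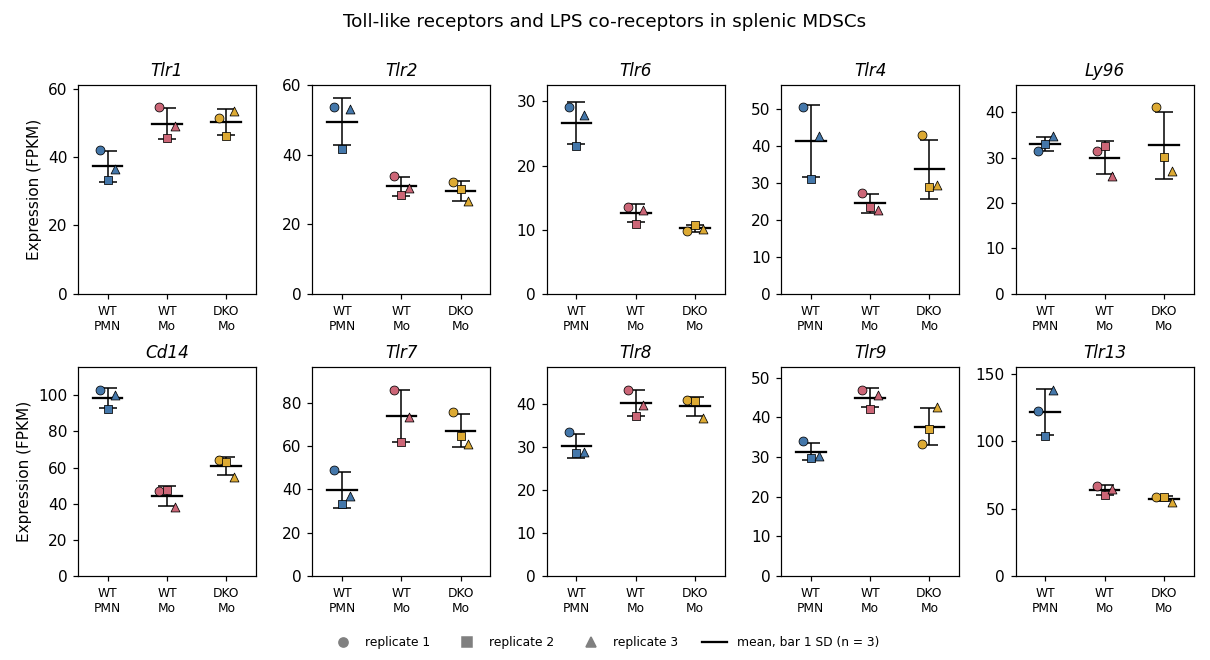
FPKM of the 10 genes in each sample, with symbols for replicate numbers, a line for the mean and bars of 1 SD (n = 3). In their means, Tlr2, Tlr4, Tlr6, Tlr13 and Cd14 were highest in PMN-MDSCs, and Tlr1, Tlr7, Tlr8 and Tlr9 were lowest there. Tlr4 and Tlr9 overlapped between PMN-MDSCs and the libraries labelled DKO, and Ly96 overlapped between all groups.

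WT Mo-MDSCs and WT PMN-MDSCs differed in the make-up of the family. Of the 10 genes 9 passed the test (limma, adjusted p below 0.05), with 4 higher and 5 lower in Mo-MDSCs, where 39.1% of the 11491 genes tested passed, 18.5% higher and 20.6% lower. The same 9 did not overlap between the groups, which held for 52.5% of all genes, and had an unadjusted p below 0.05, which held for 48.3%. The median log2 fold change of the 10 genes was -0.41, against 0.01 over all genes tested. Of the 6 surface receptors and LPS co-receptors 1 was higher, 4 were lower and 1 did not pass, and of the 4 endosomal receptors 3 were higher and 1 was lower. In such bulk samples fewer cells of a type and less RNA per cell cannot be told apart.

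Among the lipopeptide receptors, Tlr2, the shared partner, was at 53.7, 41.7 and 53.3 FPKM in PMN-MDSCs and at 33.9, 28.5 and 30.5 in Mo-MDSCs. Every Mo-MDSC value was lower, and the log2 fold change was -0.67 (SE 0.12, limma adjusted p = 0.00469). Tlr6, which pairs with Tlr2 on diacylated lipopeptides, was at 29.1, 23.0 and 27.9 FPKM in PMN-MDSCs and at 13.6, 10.97 and 13.1 in Mo-MDSCs. The groups did not overlap, and the change of -1.08 (SE 0.12, limma adjusted p = 0.000657) was the largest fall among the 8 receptors. Tlr1, which pairs with Tlr2 on triacylated lipopeptides, was at 42.1, 33.2 and 36.5 FPKM in PMN-MDSCs and at 54.5, 45.6 and 49.2 in Mo-MDSCs. It went the other way, with every Mo-MDSC value above every PMN-MDSC value and a log2 fold change of 0.42 (SE 0.11, limma adjusted p = 0.0231). The call of Tlr1 was lost when Mo-MDSC replicate 1 (0.35, limma adjusted p = 0.0760), Mo-MDSC replicate 3 (0.42, adjusted p = 0.0623), PMN-MDSC replicate 2 (0.34, adjusted p = 0.0624) or PMN-MDSC replicate 3 (0.41, adjusted p = 0.0669) was left out.

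The opposite changes of Tlr1 and Tlr6 were seen in ratios within each sample, which do not depend on the scaling between samples. The ratio of Tlr1 to Tlr6 was 1.45, 1.44 and 1.31 in PMN-MDSCs and 4.02, 4.15 and 3.75 in WT Mo-MDSCs, 2.82-fold higher. The ratio of Tlr1 to Tlr2 was 0.784, 0.795 and 0.685 in PMN-MDSCs and 1.61, 1.595 and 1.61 in WT Mo-MDSCs, 2.13-fold higher. Thus Tlr1 was below Tlr2 in every PMN-MDSC sample and above it in every WT Mo-MDSC sample. The ratio of Tlr6 to Tlr2 was 0.542, 0.551 and 0.524 in PMN-MDSCs and 0.401, 0.384 and 0.431 in WT Mo-MDSCs, so that Tlr6 fell more than its partner. None of the 6 ratios that were compared overlapped between the groups, and each had a two-sided exact permutation p of 0.1 (0.1 after adjustment over the 6), the smallest that 3 against 3 unpaired samples allow. The ratios restate the levels of the same genes, and several share a gene. Of single genes 52.5% did not overlap, and the share over ratios of other gene pairs was not computed.

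**Figure D3:**
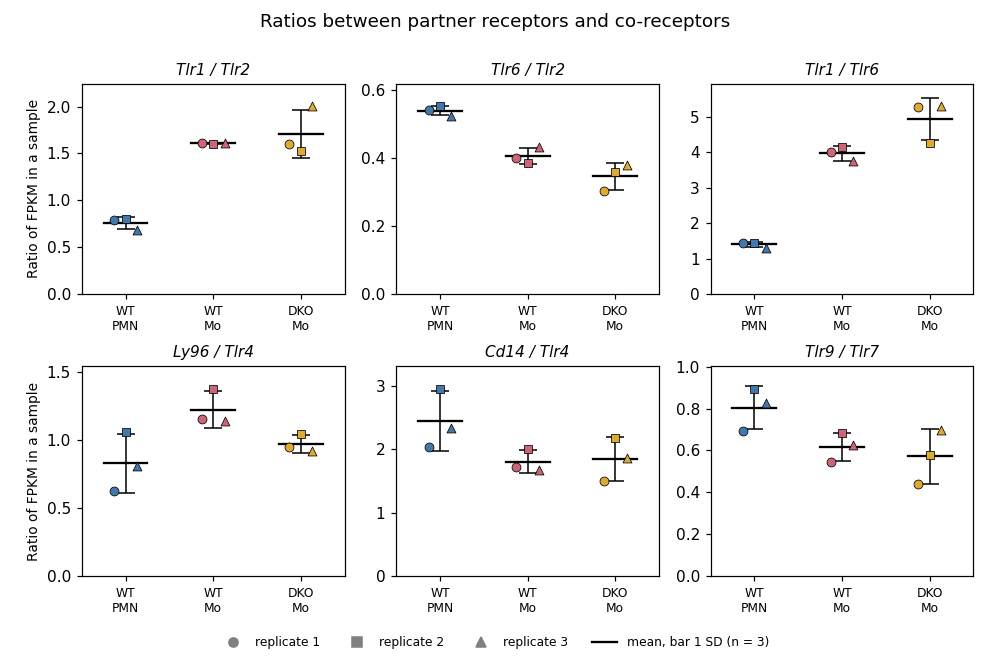
Ratios of FPKM within each sample for 6 pairs of partner receptors and co-receptors, with symbols for replicate numbers, a line for the mean and bars of 1 SD (n = 3). The Tlr1 / Tlr6 ratio lay between 1.31 and 1.45 in PMN-MDSCs, between 3.75 and 4.15 in WT Mo-MDSCs and between 4.27 and 5.30 in the libraries labelled DKO.

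In the LPS receptor complex, the co-receptor Cd14 was at 103, 92.1 and 100.3 FPKM in PMN-MDSCs and at 47.3, 47.5 and 38.0 in Mo-MDSCs. All Mo-MDSC values were lower, with a log2 fold change of -1.16 (SE 0.11, limma adjusted p = 0.000233), the largest of the 10 genes. Tlr4, the signalling receptor, was at 50.5, 31.1 and 42.8 FPKM in PMN-MDSCs and at 27.3, 23.6 and 22.6 in Mo-MDSCs. The PMN-MDSC samples were widely spread and above all Mo-MDSC samples, with a log2 fold change of -0.73 (SE 0.18, limma adjusted p = 0.0157). The call was lost without Mo-MDSC replicate 3 (-0.68, limma adjusted p = 0.0525) or PMN-MDSC replicate 3 (-0.70, adjusted p = 0.0539), and with replicates 2 and 3 only (-0.66, adjusted p = 0.0512). Ly96, the lipid-binding subunit, was at 31.5, 32.9 and 34.7 FPKM in PMN-MDSCs and at 31.5, 32.6 and 25.9 in Mo-MDSCs. These overlapped, and the difference of -0.14 (95% interval -0.39 to 0.10, limma adjusted p = 0.309) did not pass the test. The ratio of Ly96 to Tlr4 was accordingly 0.623, 1.06 and 0.809 in PMN-MDSCs and 1.15, 1.38 and 1.14 in Mo-MDSCs, 1.504-fold higher, and that of Cd14 to Tlr4 was 2.04, 2.96 and 2.34 against 1.73, 2.01 and 1.68. Over the same samples the mean summed level of the red-pulp macrophage markers in Mo-MDSCs was 0.667 of that in PMN-MDSCs, beside 0.449 for Cd14, 0.591 for Tlr4, 0.471 for Tlr6, 0.525 for Tlr13 and 0.625 for Tlr2; the part of the macrophages in these differences was not tested.

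Among the endosomal receptors, Tlr7 was at 48.9, 33.4 and 36.7 FPKM in PMN-MDSCs and at 86.0, 61.9 and 73.2 in Mo-MDSCs. It was the gene with the largest rise, 1.86-fold in the means, with a log2 fold change of 0.90 (SE 0.17, limma adjusted p = 0.00603) and replicate 1 highest in both groups. Tlr8, its X-linked neighbour, was at 33.3, 28.5 and 28.8 FPKM in PMN-MDSCs and at 43.3, 37.2 and 39.8 in Mo-MDSCs. Every Mo-MDSC sample was higher, by a smaller log2 fold change of 0.41 (SE 0.10, limma adjusted p = 0.0135). Tlr9, the receptor for unmethylated CpG DNA, was at 33.9, 29.9 and 30.3 FPKM in PMN-MDSCs and at 47.0, 42.2 and 45.7 in Mo-MDSCs. The groups were far apart for their narrow spread, with a log2 fold change of 0.52 (SE 0.08, limma adjusted p = 0.00277). Tlr9 and Tlr7, which compete for Unc93b1, did not rise equally, and the ratio of Tlr9 to Tlr7 was 0.693, 0.896 and 0.825 in PMN-MDSCs and 0.547, 0.682 and 0.624 in Mo-MDSCs. Tlr13 was the exception among the endosomal receptors, at 122, 104 and 138.5 FPKM in PMN-MDSCs and at 67.0, 60.0 and 64.6 in Mo-MDSCs. The lowest PMN-MDSC value was above every Mo-MDSC value, and the log2 fold change was -0.92 (SE 0.11, limma adjusted p = 0.000924). Plasmacytoid dendritic cells and B cells are known to express Tlr7 and Tlr9. The summed plasmacytoid dendritic cell list in Mo-MDSCs was 0.7501 of its level in PMN-MDSCs. This ratio mostly reflects Ly6d, with means of 416.6 of the 556.7 FPKM in PMN-MDSCs and 246.9 of the 417.5 in Mo-MDSCs. Of the 5 markers tested Tcf4 (0.39, limma adjusted p = 0.0247) and Cox6a2 (0.51, adjusted p = 0.0108) were higher. Ly6d was lower (-0.75, limma adjusted p = 0.00101), and Bst2 and Pacsin1 did not pass. The B-cell list was at 0.704 of its PMN-MDSC level, and the part of both cell types in the values of Tlr7, Tlr8 and Tlr9 was not tested.

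**Figure D4:**
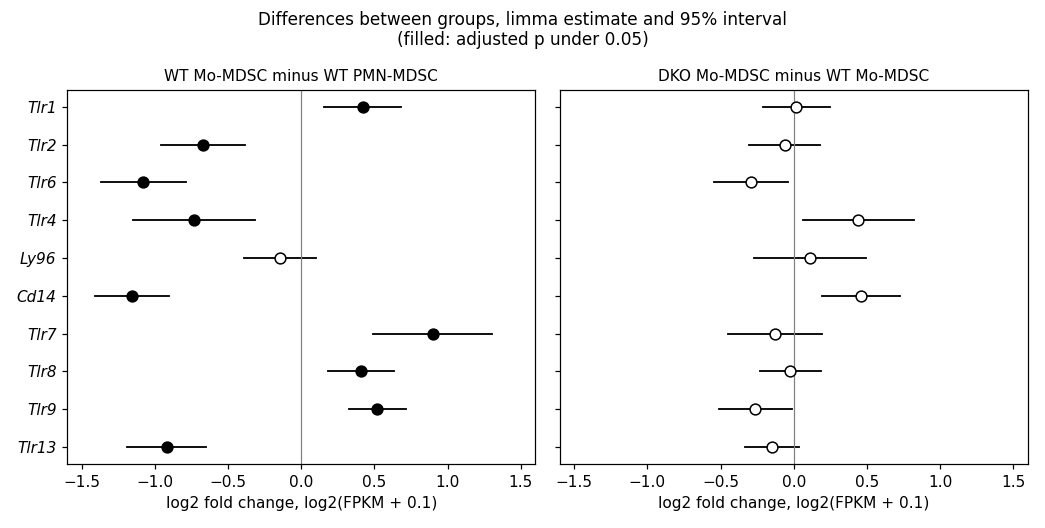
Log2 fold changes of the 10 genes on the log2(FPKM + 0.1) scale with 95% intervals from limma, for WT Mo-MDSCs minus WT PMN-MDSCs (left) and for Mo-MDSCs labelled DKO minus WT Mo-MDSCs (right), filled where the adjusted p was below 0.05. On the left 9 genes are filled, from -1.16 for Cd14 to 0.90 for Tlr7, and on the right none is filled, with Tlr4 at 0.44 and Cd14 at 0.46.

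Summed over the 8 receptors, the level was 414.0, 324.9 and 395.0 FPKM in PMN-MDSCs and 372.5, 310.0 and 338.8 in WT Mo-MDSCs, so that these overlapped. The sum of the 4 endosomal receptors was also alike in its range, with 195.8 to 238.6 FPKM in PMN-MDSCs and 201.3 to 243.3 in WT Mo-MDSCs. Without Tlr13, the remaining Tlr7, Tlr8 and Tlr9 summed to 91.7 to 116.2 and 141.4 to 176.2 FPKM, with no overlap. As shares of the sum of the 8 receptors, Tlr13 made up 32.2 ± 2.75% in PMN-MDSCs and 18.8 ± 0.714% in WT Mo-MDSCs (SD, n = 3). Tlr7 made up 10.5 ± 1.27% and 21.6 ± 1.55%, Tlr1 9.88 ± 0.546% and 14.6 ± 0.0856%, and Tlr9 8.35 ± 0.775% and 13.2 ± 0.546%. Tlr2 made up 13.1 ± 0.347% and 9.10 ± 0.103%, Tlr4 10.9 ± 1.31% and 7.21 ± 0.480%, and Tlr6 7.06 ± 0.0320% and 3.69 ± 0.175%. For all 8 receptors the samples of the subsets did not overlap in their shares. The FPKM of the same 8 did not overlap either, so the shares are those values in another form and no further result.

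**Figure D5:**
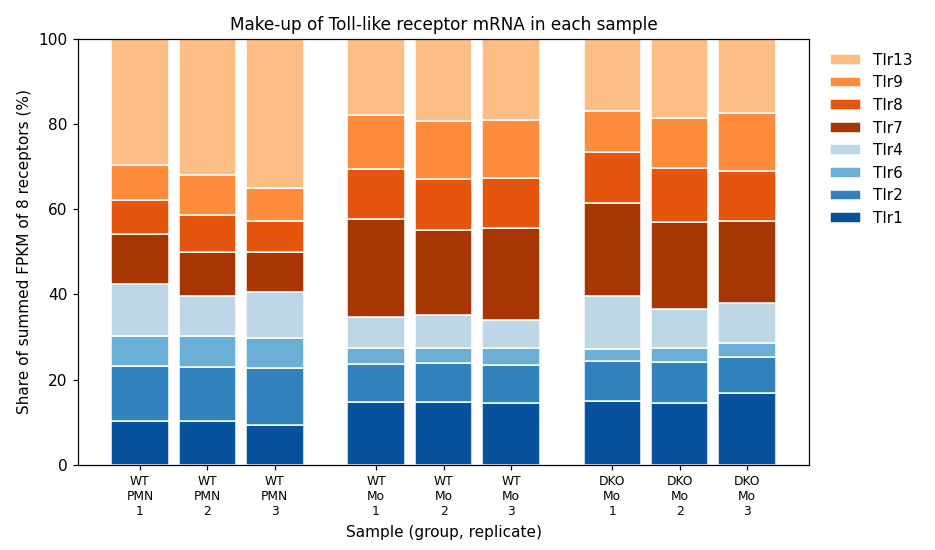
Stacked bars of the share of each receptor in the summed FPKM of the 8 Toll-like receptors, 1 bar per sample, with surface receptors in blue and endosomal receptors in orange. The Tlr13 share was 29.6 to 35.1% in PMN-MDSCs and 18.0 to 19.3% in WT Mo-MDSCs, and the Tlr7 share was 9.30 to 11.8% and 20.0 to 23.1%.

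The sequence before the start sites of the genes was examined because the receptors fell into a group that rose and a group that fell. RefSeq promoter windows (GRCm38.p6) were found for 6 of the 10 genes, with a second window for Tlr1 and for Tlr6. Stretches of at most 100 bases without exons, ending at or before the start, are printed for Tlr1 (chr5:64933564-64933663), Tlr8 (chrX:167264330-167264429) and Tlr9 (chr9:106222498-106222597), which were higher in Mo-MDSCs, and for Tlr2 (chr3:83841768-83841858), Tlr6 (chr5:64959167-64959266 and chr5:64960098-64960197) and Tlr13 (chrX:106143104-106143203), which were lower, with Tlr9 and Tlr13 on the plus and the others on the minus strand. Capitals mark matches, on either strand, to GAGGAAG (bound by PU.1), TTGCNNAA (C/EBP), TGANTCA (AP-1), an NF-kB motif (GGG, NN, TT, N and CC in a row) or the interferon-stimulated response element (GAAA, NN and GAAA in a row), where N is any base. No match overlaps another in these stretches. The first stretch of Tlr6 lies inside the gene, before an internal RefSeq start, and the other lies before the first base of the gene and holds no match. The second window of Tlr1, also inside its gene, left a stretch of 39 bases without a match, which is not printed.
Tlr1: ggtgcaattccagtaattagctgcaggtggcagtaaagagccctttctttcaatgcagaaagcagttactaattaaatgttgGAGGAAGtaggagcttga
Tlr8: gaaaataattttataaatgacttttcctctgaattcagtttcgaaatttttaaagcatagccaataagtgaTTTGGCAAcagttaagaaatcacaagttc
Tlr9: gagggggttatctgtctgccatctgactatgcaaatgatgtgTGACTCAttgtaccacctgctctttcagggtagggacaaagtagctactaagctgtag
Tlr2: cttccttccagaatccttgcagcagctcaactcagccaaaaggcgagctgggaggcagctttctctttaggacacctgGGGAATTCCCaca
Tlr6, inside the gene: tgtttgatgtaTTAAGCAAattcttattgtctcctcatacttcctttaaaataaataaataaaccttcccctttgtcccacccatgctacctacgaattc
Tlr6, before the gene: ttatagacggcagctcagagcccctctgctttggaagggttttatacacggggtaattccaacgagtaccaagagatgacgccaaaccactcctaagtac
Tlr13: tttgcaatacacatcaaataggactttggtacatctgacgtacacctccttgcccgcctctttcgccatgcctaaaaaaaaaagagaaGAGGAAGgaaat
The PU.1 letters stood in the whole windows of Tlr1, Tlr9 and Tlr13 and in 13.6% of all 32851 windows of the same length. The C/EBP letters stood in those of Tlr6 (inside the gene), Tlr8 and Tlr13 and in 10.8% of all windows, the NF-kB letters in that of Tlr2 (4.79%), the AP-1 letters in that of Tlr9 (7.81%) and the interferon-stimulated response element in the same Tlr6 window, outside the printed stretch (3.44%). PU.1 and C/EBP letters were thus found in windows of genes that rose and of genes that fell.

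No difference between Mo-MDSCs labelled DKO and WT Mo-MDSCs was called in these genes, although the values of some did not overlap. None of the 10 passed the test (limma, adjusted p below 0.05), where 29 of the 11451 genes tested did, which is 0.253%, with 0.166% higher and 0.0873% lower. At an unadjusted p below 0.05 there were 4 of the 10 (Tlr4, Tlr6, Tlr9 and Cd14), against 15.0% of all genes, and 4 did not overlap between the groups (Tlr4, Tlr6, Tlr13 and Cd14), against 20.8% of all genes. The median log2 fold change of the 10 genes was -0.04, against -0.02 over all genes tested.

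The largest differences were those of Cd14 and Tlr4 in the LPS receptor complex, and that of Ly96 was small. Cd14 was at 64.4, 63.2 and 55.0 FPKM in the libraries labelled DKO and at 47.3, 47.5 and 38.0 in WT Mo-MDSCs. All values labelled DKO were higher, but the log2 fold change of 0.46 (95% interval 0.19 to 0.73) did not pass the test (limma adjusted p = 0.178). Tlr4 was at 43.1, 28.9 and 29.4 FPKM in the libraries labelled DKO and at 27.3, 23.6 and 22.6 in WT Mo-MDSCs. The log2 fold change was 0.44 (95% interval 0.06 to 0.82, limma adjusted p = 0.282), and it was 0.26 without DKO replicate 1. Ly96 was at 41.1, 30.2 and 27.0 FPKM in the libraries labelled DKO and at 31.5, 32.6 and 25.9 in WT Mo-MDSCs. These overlapped, with a difference of 0.11 (95% interval -0.27 to 0.50), which was -0.06 without DKO replicate 1. Replicate 1 was the highest of the libraries labelled DKO for all 3 genes of the complex, and it also had the highest summed level of the red-pulp macrophage markers, 6145 FPKM against 5029 and 4044; their part in these values was not tested.

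The remaining receptors were level or slightly lower in the libraries labelled DKO. Tlr6 was at 9.74, 10.8 and 10.1 FPKM, below WT Mo-MDSCs at 13.6, 10.97 and 13.1, with a log2 fold change of -0.29 (95% interval -0.54 to -0.04, limma adjusted p = 0.282). Tlr9 was at 33.3, 37.2 and 42.6 FPKM against 47.0, 42.2 and 45.7, with an overlap of replicate 3 and a log2 fold change of -0.26 (95% interval -0.51 to -0.01, limma adjusted p = 0.312). Tlr13 was at 58.4, 58.9 and 55.1 FPKM, all just below the WT values of 67.0, 60.0 and 64.6, with a log2 fold change of -0.15 (95% interval -0.34 to 0.03). Tlr7 was at 75.7, 64.5 and 60.9 FPKM against 86.0, 61.9 and 73.2, and its interval ran from -0.45 to 0.19. For Tlr1 (51.6, 46.1 and 53.3 FPKM), Tlr2 (32.2, 30.2 and 26.6 FPKM) and Tlr8 (40.9, 40.6 and 36.8 FPKM) the estimates were 0.02, -0.06 and -0.02, and the 95% intervals lay between -0.30 and 0.25 on the log2 scale. A change of the size seen between the subsets for Tlr2 was therefore outside the interval for that gene.

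Of the 6 ratios within samples, 3 did not overlap between the libraries labelled DKO and WT Mo-MDSCs. Of single genes 20.8% did not overlap, and the share over ratios of other gene pairs was not computed. The ratio of Tlr1 to Tlr6 was 5.29, 4.27 and 5.30 against 4.02, 4.15 and 3.75, that of Tlr6 to Tlr2 was 0.303, 0.357 and 0.378 against 0.401, 0.384 and 0.431, and that of Ly96 to Tlr4 was 0.954, 1.04 and 0.917 against 1.15, 1.38 and 1.14. Each had a two-sided exact permutation p of 0.1 (0.2 after adjustment over the 6 ratios), the smallest possible. The ratios of Tlr1 to Tlr2, Cd14 to Tlr4 and Tlr9 to Tlr7 overlapped. Summed over the 8 receptors, the libraries labelled DKO reached 344.8, 317.1 and 314.9 FPKM, within the range of WT Mo-MDSCs. The Tlr4 share was 10.3 ± 1.88% (SD, n = 3) and the Tlr6 share 3.14 ± 0.294% of this sum.

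The other Toll-like receptors were low, and 1 of the 4 changed between the subsets, 25% against 39.1% of all genes. Tlr5, the flagellin receptor, was at 6.06, 5.95 and 7.05 FPKM in PMN-MDSCs and at 2.00, 2.76 and 2.91 in WT Mo-MDSCs. All Mo-MDSC values were lower (log2 fold change -1.29, SE 0.16, limma adjusted p = 0.00103). Tlr3, Tlr11 and Tlr12 were between 1.58 and 6.80 FPKM in all samples and did not pass the test in either comparison. None of these 4 passed it in the libraries labelled DKO.

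Of 10 accessory proteins and chaperones, 3 were higher and 1 was lower in WT Mo-MDSCs, a share of 40% called that is close to the 39.1% of all genes. Unc93b1, which carries the nucleic acid receptors to endosomes, was at 356.9, 415.8 and 392.6 FPKM in PMN-MDSCs and at 380.2, 419.5 and 422.5 in WT Mo-MDSCs, a difference of 0.07 (SE 0.09, limma adjusted p = 0.583). Ctss, the cathepsin that cleaves endosomal receptors, rose from 888.3, 860.0 and 832.5 FPKM to 1569, 1312 and 1474 (log2 fold change 0.75, limma adjusted p = 0.00138). Slc15a4, an endolysosomal transporter needed for Tlr7 and Tlr9 signalling, rose by a log2 fold change of 0.43 (limma adjusted p = 0.00485). Ly86 (MD-1), the Ly96-like partner of Cd180, rose by 0.52 (limma adjusted p = 0.0109), whereas Cd180 itself was at 103.6, 70.4 and 80.7 FPKM against 110.8, 84.7 and 92.3 and did not pass. Lgmn, an endosomal protease, was lower (-0.31, limma adjusted p = 0.0354), a call lost in 4 of the 6 fits that left out a sample (adjusted p 0.0471 to 0.121). With quantile normalization its estimate was 0.21 (limma adjusted p = 0.141).

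No accessory gene passed in the libraries labelled DKO. Lbp, the serum protein that hands LPS to Cd14, was at 13.04, 6.76 and 24.5 FPKM in PMN-MDSCs, at 11.9, 8.34 and 20.7 in WT Mo-MDSCs and at 3.72, 7.71 and 3.58 in the libraries labelled DKO. It was highest in replicate 3 of both WT groups, where the neutrophil granule gene Camp was also highest (5888 and 4319 FPKM). In the libraries labelled DKO Camp was at 995.1, 1342 and 618.1 FPKM, with the highest value in the same replicate as Lbp. The difference of Lbp between the libraries labelled DKO and WT Mo-MDSCs was -1.42 (SE 0.38, limma adjusted p = 0.199).

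Of 27 adaptors, kinases and transcription factors, 8 were higher and 6 were lower in WT Mo-MDSCs, 51.85% called against 39.1% of all genes (18.5% higher and 20.6% lower). Myd88, the adaptor of the members, was at 199.5, 202.4 and 267.9 FPKM in PMN-MDSCs and at 105.7, 101.7 and 124.3 in WT Mo-MDSCs. The log2 fold change was -1.005 (SE 0.14, limma adjusted p = 0.00150). It was at 69.9, 88.3 and 63.4 FPKM in the libraries labelled DKO, below all WT samples, with a log2 fold change of -0.59 that did not pass (SE 0.14, limma adjusted p = 0.160). Ticam2, the adaptor that bridges Tlr4 to Ticam1, was at 4.96, 5.54 and 5.38 FPKM in PMN-MDSCs and at 15.5, 14.2 and 17.0 in WT Mo-MDSCs (log2 fold change 1.54, limma adjusted p = 5.08e-05). Ikbke, a kinase of interferon regulatory factors, rose by a log2 fold change of 1.92 (limma adjusted p = 5.99e-05), and Ikbkb, the kinase that releases NF-kB, rose by 1.26 (limma adjusted p = 6.23e-05). Ticam1 itself (0.32, limma adjusted p = 0.0578) and Traf3, Tbk1 and Irf3, which act after it, did not pass. None of the 27 passed in the libraries labelled DKO.

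Of 13 negative regulators 12 were tested, and 1 was higher and 6 were lower in WT Mo-MDSCs, 58.3% called against 39.1% of all genes, of which 20.6% were lower. Dusp1, the phosphatase that ends MAP kinase signalling, was at 291.9, 314.8 and 264.6 FPKM in PMN-MDSCs and at 33.3, 23.3 and 20.1 in WT Mo-MDSCs (log2 fold change -3.53, limma adjusted p = 2.28e-05). Socs1 (-0.82, limma adjusted p = 0.00250), the RNase gene Zc3h12a (-0.50, adjusted p = 0.00869) and Irak3, the inhibitory kinase homologue (-0.35, adjusted p = 0.0399), were also lower. The 1 that was higher, Atf3 (0.32, limma adjusted p = 0.0308), is named because of that count. When each of the 6 samples was left out, the call was lost in 5 fits for Atf3 (limma adjusted p 0.0209 to 0.0956) and in 4 for Irak3 (0.0342 to 0.116). Tollip (-0.33) and Nfkbia (-0.29), also lower, are named for calls lost in 5 and 3 of these fits (limma adjusted p 0.0215 to 0.125 and 0.0342 to 0.0741). With quantile normalization the estimate of Nfkbia was 0.07 (limma adjusted p = 0.421). None of the 12 passed in the libraries labelled DKO.

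Of 14 genes that Toll-like receptor signalling is known to induce, 9 were tested between the subsets, and 1 was higher and 6 were lower in WT Mo-MDSCs, 77.8% called against 39.1% of all genes (18.5% higher and 20.6% lower). The cytokine gene Il1b was at 1613, 1594 and 2005 FPKM in PMN-MDSCs and at 33.8, 26.2 and 39.2 in WT Mo-MDSCs (log2 fold change -5.72, limma adjusted p = 3.13e-06). Socs3, a feedback inhibitor of cytokine receptors, was at 221.6, 170.2 and 257.2 FPKM against 32.5, 38.2 and 35.7 (-2.59, limma adjusted p = 3.77e-05). Ptgs2 and Cxcl2 were between 2.96 and 6.77 FPKM in PMN-MDSCs and at most 0.356 in WT Mo-MDSCs. They passed the filter on low values only through PMN-MDSCs, where they were high, so their calls could hardly go the other way. The 6 lower genes and the 77.8% called include both. The 1 that was higher, the interferon-induced chemokine gene Cxcl10, was at 6.52, 6.43 and 6.96 FPKM against 17.1, 10.1 and 13.3 (0.98, limma adjusted p = 0.00503). Il6, Il10, Il12b, Cxcl1 and Ifnb1 were below 1 FPKM in every sample, and Tnf was at 12.8, 11.6 and 19.2 FPKM in PMN-MDSCs and 11.8, 10.5 and 15.1 in WT Mo-MDSCs. In the libraries labelled DKO 7 of the 14 were tested and 1 passed, Socs3, at 14.6, 20.1 and 15.3 FPKM (log2 fold change -1.10, SE 0.13, limma adjusted p = 0.0278), where 0.253% of all genes passed. The fold change was -1.24 to -1.01 when each of the 6 samples was left out, and the call was lost in 5 of these fits: without DKO replicate 1 (limma adjusted p = 0.0706) or 3 (0.143) and without WT Mo-MDSC replicate 1 (0.115), 2 (0.0616) or 3 (0.133). Beside this, the 7 neutrophil markers in the files summed to 2020 to 4267 FPKM in the libraries labelled DKO. In WT Mo-MDSCs they summed to 4500 to 14040 FPKM. Of the 7 estimates 6 were below 0 and none was called. Ngp (4434), Camp (2552) and Ltf (1099) made up most of the WT Mo-MDSC mean of 8309 FPKM. None of these passed the test between the subsets. Of the 4 markers called there, Retnlg (-1.71), Cxcr2 (-0.70) and Csf3r (-0.38) had log2 fold changes below 0 by genotype. Mmp8 went the other way (0.79, limma adjusted p = 0.156). It was at 76.0, 112.2 and 71.7 FPKM in the libraries labelled DKO, against 42.3, 50.2 and 55.2. Socs3 was higher in PMN-MDSCs. The part of neutrophil RNA in the difference of Socs3 was not tested.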

How the data were processed

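RNA of MDSCs from the spleens of SCT-bearing mice was sequenced by the authors from stranded mRNA libraries with single-end reads of 75 bases. Per the labels and the study's methods, reads were mapped to mm10 with TopHat 2.0.13, Bowtie2 2.2.3 and SAMtools 0.1.19, and the authors deposited FPKM values from Cuffnorm 2.2.1, 1 file per sample. The annotation and the scaling of the libraries are not given in the sources used here. The labels put replicate 1 of each group in an earlier series of library numbers than replicates 2 and 3.

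Values were transformed to log2(FPKM + 0.1), so that fold changes of low genes are understated, and were not scaled further. For each comparison of 6 samples, genes reaching 1 FPKM in 3 samples or more were fitted with limma 3.58.1 in R 4.3.3 (linear model, then moderated variances with a trend, no covariates), and p-values were adjusted over all genes tested by the Benjamini-Hochberg method. The median standard error was 0.12 on the log2 scale in both comparisons. The fit was tested on simulated data. Ratios within samples were compared by two-sided exact permutation tests (scipy 1.17.1). The depth in reads is unknown. Relative to WT Mo-MDSC replicate 1, the depth estimated from steps of genes below 0.5 FPKM was 0.809 to 1.31, and only a minority of low values fell on such steps, so counts were not recovered.

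Replicate numbers were checked for pairing by correlating deviations from group means over the fitted genes. For the 2 WT subsets all same-numbered pairs correlated above 0.1 (0.200 to 0.483). Between libraries labelled DKO and WT, replicates 1 and 2 did so (0.348 and 0.226) and replicate 3 did not (-0.07). The condition that every pair be above 0.1 was thus met in the first comparison only. The main fits and the exact permutation tests did not use pairs in either comparison, and the replicate block was an alternative.

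The genes, the pathway lists and the marker lists were chosen with earlier results of these data known. All 10 genes are described in both comparisons. From each pathway list the text names up to 4 called genes with the largest changes, besides Unc93b1, Myd88, Cd180, Ly86, Lbp and Irak3. One gene with a pattern like that of Tlr6 is not reported here. Sequences were read from GENCODE M21 and RefSeq tables. Alternatives were pseudocounts of 1 and 0.01, other filters, quantile and median-ratio scaling, all 9 samples in 1 fit, no variance moderation, the replicate block, replicates 2 and 3 only, each sample left out and the study's fold thresholds in both directions and, added after seeing the data, in the direction the study used.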

Additional observations from a re-analysis of the deposited data

How the results depend on the processing

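The 9 calls between WT Mo-MDSCs and PMN-MDSCs kept their direction under all 16 alternative fits, and between 7 and 9 remained called when each sample was left out. Tlr1 and Tlr4 lost the call in 5 and 4 of these fits, including the one without variance moderation, and the other 7 in none. Over all genes 3295 to 3864 were called when a sample was left out and 2759 with replicates 2 and 3 only. For libraries labelled DKO none of the 10 genes was called under any of the 16 fits. There the count over all genes, 29, ranged from 8 to 25 when a sample was left out, and was 51 with all 9 samples in 1 fit, 13 without a filter, 6 with replicates 2 and 3 only and 0 without variance moderation, where 1326 genes had an unadjusted p below 0.05. The 1 pathway gene called became 2 with all 9 samples in 1 fit, 0 without a filter, without variance moderation or with replicates 2 and 3 only, and 0 to 1 when a sample was left out, with Socs3 called in the fit without DKO replicate 2 and lost in the other 5. With the study's fold thresholds taken in both directions (a fold of 2 between the subsets, 0.75 or its inverse by genotype, unadjusted p below 0.05) 2 of the 10 genes (Tlr6 and Cd14, both lower in Mo-MDSCs), 11 pathway genes and 1172 genes in all passed between the subsets, and 2 (Tlr4 and Cd14, both higher), 6 and 801 by genotype. The study applied each in 1 direction, higher in Mo-MDSCs and lower in DKO. In an alternative added after seeing the data that keeps to this, 0 of the 10 genes, 3 pathway genes and 408 genes in all passed between the subsets, and 0, 4 and 507 by genotype. The causes of these differences were not tested.

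Estimates near 0 changed sign for libraries labelled DKO. When each sample was left out, the log2 fold change ran from -0.0437 to 0.0854 for Tlr1, from -0.122 to 0.0139 for Tlr2, from -0.0766 to 0.0320 for Tlr8 and from -0.0635 to 0.238 for Ly96. Tlr8 was also at 0.0347 with quantile normalization and 0.00469 with replicates 2 and 3 only, and Ly96 was at -0.0239 with replicates 2 and 3 only. The log2 ratios ran from -0.0389 to 0.156 for Tlr1 to Tlr2, from -0.108 to 0.164 for Cd14 to Tlr4 and from -0.289 to 0.0447 for Tlr9 to Tlr7.

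With the replicate block 6584 genes were called between the subsets, against 4492 in the main fit, with the same count of 9 members. For Tlr1 the SE was 0.0461 with the block (limma adjusted p = 0.000685) and 0.112 in the main fit, which left the pairs out. Between libraries labelled DKO and WT, where only the pairs of replicates 1 and 2 correlated above 0.1, 20 were called. The block changed no call of a member. The precision is limited by 3 samples per group, and depth in reads is unknown.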

Other observations

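Across the 9 samples the levels of the genes fell into sets that moved together, which is a description over libraries that share their groups and carries no test. Pearson's r of the log2 values was 0.99 between Tlr7 and its X-linked neighbour Tlr8, 0.95 between Tlr1 and Tlr7, 0.99 between Tlr6 and Tlr13 and 0.98 between Tlr2 and Tlr13. Between the neighbours Tlr1 and Tlr6 it was -0.78. Ly96 was least like the others, with values from -0.62 with Tlr9 to 0.59 with Tlr4.

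Among 11519 genes compared, those whose pattern over the 9 samples was most like a member were Paip2 (r = 0.999), Cmtm6 and Grb2 for Tlr13, and Clec7a (r = 0.998), the receptor for fungal beta-glucans with a mean of 196 FPKM, followed by Fhl3 for Tlr6. For Tlr2 they were Ccni (0.994), Akirin1 and Ppp1r2. For Tlr7 they were Zfp280c (0.995), Hsf2 and Itgav, and for Tlr8 Cav2 (0.987), Tlr7 and Hsf2. The nearest genes were Ept1 (0.987) for Tlr1, Ubqln1 (0.976) for Tlr4, Runx3 (0.972) for Tlr9, Irgm2 (0.977) for Cd14 and 1700003F12Rik (0.965) for Ly96.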
